A study of Mus musculus with 16 samples.

Results

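Complexes II to V of the respiratory chain were followed through 50 genes in the hearts of 2 inbred mouse strains, with and without an infarct. The genes were taken by symbol from the 13842 genes of the count table: the 4 subunits of complex II (Sdha to Sdhd) and its 4 assembly factors (Sdhaf1 to Sdhaf4), 9 subunits of complex III (Cyc1 and the Uqcr genes), cytochrome c (Cycs), 15 subunits of complex IV (the Cox4 to Cox8 genes, without Cox7a2l) and 15 subunits of complex V (the Atp5 genes). The same symbol rule also took Atp5s and Atp5sl, which do not code for subunits of the enzyme. All 50 passed the filter on low counts. RNA was sequenced from 16 female mice aged 3 months, 8 of strain DBA/2J (DBA below) and 8 of strain C57Bl6/N (C57 below). In each strain 4 mice had a permanent coronary artery ligation, which infarcts part of the left ventricle, and were sampled 2 weeks later, and 4 were untreated; no sham operation is named. The strain field reads C57Bl6N for all 8 C57 mice, but the titles write C57Bl-6NCR for the controls and C57Bl-6N for the ligated mice; a difference in substrain or source, if there was one, coincides with ligation and cannot be told apart from it. The ligated samples are described as remote, that is, away from the infarct, and the tissue is given both as septum with right ventricles and as septum with left ventricle.

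The respiratory chain sits in the inner mitochondrial membrane. Complex II (succinate dehydrogenase) passes electrons from succinate to ubiquinone, complex III (the cytochrome bc1 complex) passes them to the small carrier cytochrome c, and complex IV (cytochrome c oxidase) passes them to oxygen. Complexes III and IV pump protons, and complex V (ATP synthase) uses the returning protons to make ATP. Heart muscle draws most of its ATP from this chain. Some subunits of complex IV have a heart and skeletal muscle form and a form of other tissues, coded by separate genes. The subunits that mitochondrial DNA encodes were not analysed here.

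Libraries held 4922411 to 22010830 counts. The DBA controls 3 and 4 and the C57 control 1 held fewer than 9000000 each and are called the 3 shallowest libraries. Among the 50 genes, Uqcrb, Cox6c and Atp5h were high and Cyc1, Atp5d and Cox8a low in DBA controls 3 and 4. The deviation from the group mean went with the GC content of the transcript, with a Spearman rho over the 50 genes of 0.54, 0.45, -0.31 and -0.52 in DBA controls 1, 2, 3 and 4. Over all genes tested with a known GC content, rho was 0.45, 0.49, -0.29 and -0.47, so this was not particular to the 50 genes. The 50 values of a library share its depth, so this is a description. Uqcrb has a GC content of 41.3% and Cyc1 one of 60.5%. Other members went the other way. In DBA control 4 the log2 deviation was 0.53 for Atp5k, at 54.9% GC, and -0.49 for Uqcrfs1, at 48.6%. The comparisons and the genes given with all their values below are therefore also given without the 3 shallowest libraries where their calls changed. The part of RNA quality or library preparation in the split was not tested.

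Per kilobase of transcript, levels within a complex spanned a narrow range in complexes II and III and a wide one in complexes IV and V. Averaged over the 16 libraries, complex II ran from 265 CPM per kb for Sdhd, a membrane anchor, to 626 for Sdhb, the iron-sulfur subunit. Complex III ran from 367 CPM per kb for Cyc1 to 1300 for Uqcrb, a small subunit. In complex V the catalytic beta subunit Atp5b stood highest at 2280 CPM per kb, ahead of the alpha subunit Atp5a1 at 1890. Subunit c, which forms the rotating ring, is coded by 3 genes, with Atp5g3 at 1170, Atp5g1 at 577 and Atp5g2 at 82.1 CPM per kb. In complex IV, Cox4i1 stood highest at 1710 CPM per kb. Its paralog Cox4i2, a form best known from lung, stood at 15.1, and Cox6b2, a form of testis, at 1.47 CPM per kb. The muscle forms exceeded their partners: Cox6a2 stood at 1640 CPM per kb and Cox6a1 at 99.4, Cox7a1 at 925 and Cox7a2 at 311, and Cox8b at 791 and Cox8a at 121.

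On the TMM scale (trimmed mean of M values), the summed level of each complex was on average highest in C57 controls and lowest in ligated DBA hearts. Complex V subunits together held a mean of 18713 CPM in C57 controls (SD 123, n = 4), 16381 in ligated C57 hearts (SD 1844), 15666 in DBA controls (SD 706) and 13850 in ligated DBA hearts (SD 367). The ranges were 18604 to 18839, 14114 to 18501, 14760 to 16252 and 13526 to 14361 CPM. Ligated and control libraries therefore did not overlap in either strain, nor did the controls of the strains, whereas the ligated groups overlapped. The order was the same for complex IV except that DBA controls, at 6908 CPM (SD 396), stood above ligated C57 hearts, at 6587 (SD 767); C57 controls held 7932 (SD 653) and ligated DBA hearts 5561 (SD 140). Complex II held 3511 CPM (SD 159) in C57 controls, 2911 (SD 379) in ligated C57, 3100 (SD 140) in DBA controls and 2748 (SD 42) in ligated DBA hearts. Complex III held 5396 CPM (SD 165), 4886 (SD 445), 5095 (SD 272) and 4333 (SD 53) in the same groups. Within the ligated C57 group, library 1 was lowest for each of the 4 complexes and library 2 highest. These sums are weighted by the most abundant subunits. As a plain share of all counts, in the order C57 control, C57 ligated, DBA control and DBA ligated, complex V made up 1.75%, 1.65%, 1.52% and 1.51%, complex IV 0.741%, 0.664%, 0.67% and 0.606%, complex III 0.504%, 0.493%, 0.494% and 0.472%, and complex II 0.329%, 0.294%, 0.301% and 0.299%. On this scale the 2 DBA groups nearly met in complexes II and V, and complex II was lowest in ligated C57 hearts.

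**Figure D1:**
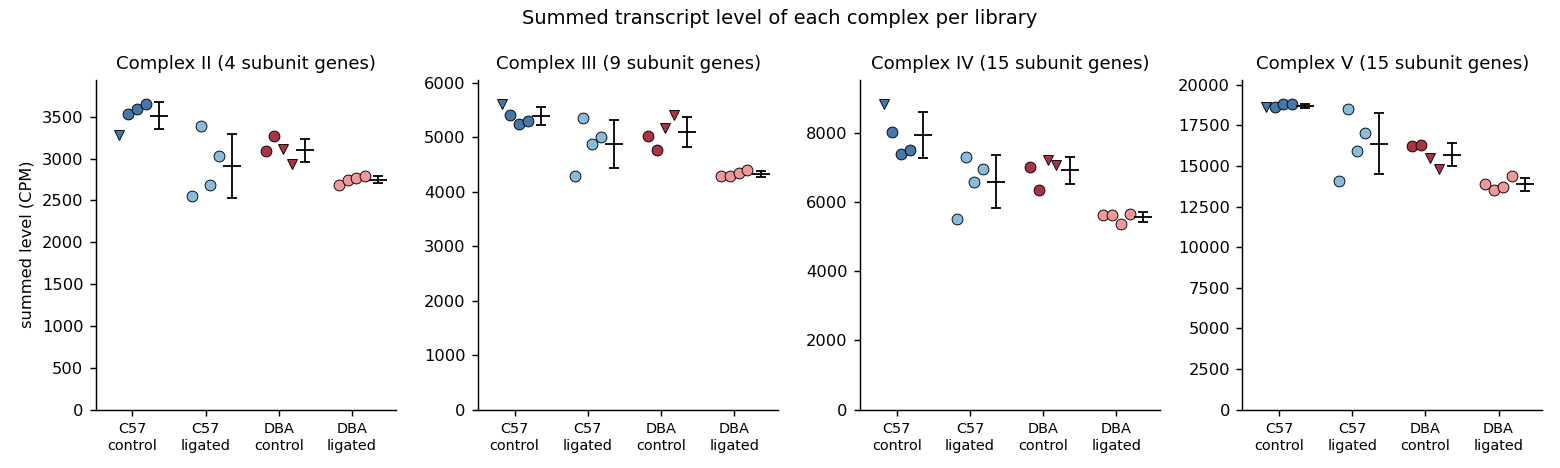
Summed level of the subunit genes of each complex (CPM, y axis) in each of the 16 libraries, by group. Circles are libraries, triangles are the 3 shallowest libraries, and the bar beside them is the group mean with its SD; on this TMM scale ligated DBA libraries lie lowest on average in all 4 complexes.

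After ligation in DBA mice, 14 of the 50 genes fell and none rose (edgeR quasi-likelihood test, Benjamini-Hochberg adjusted p under 0.05 over 13504 genes). Over all genes, 24.9% were called, 13.8% lower and 11.1% higher. The lower genes were 6 of 15 subunits of complex V, 4 of 15 of complex IV, 2 of 9 of complex III and 1 of 4 of complex II, with Atp5s besides. The median log2 fold change of the 50 genes was -0.08, against 0.03 for all genes tested, and by complex it was -0.09 in II, 0.13 in III, -0.20 in IV and -0.01 in V. Scaled by library totals alone, 5 of the 50 were called higher and 6 lower, and the median of the 50 was 0.09 where that of all genes was 0.19. Of all genes 6.08% were then lower and 3105 of 13504 higher. In 19 of the 50 genes the 4 ligated libraries all lay below the 4 controls, against 12.4% of all genes, and in 1, Cox8a, all lay above, against 12.9%. Leaving out the 3 shallowest libraries, which left 2 DBA controls, only Cox5b was still called (log2 fold change -0.35, adjusted p = 0.0467), and 3.78% of all genes fell. Single libraries moved the count as well: it was 4 without DBA control 3, 9, 6 and 7 without ligated libraries 1, S41 and S42, and 22 without DBA control 2, of which 6 were higher. The share of all genes moved too: 5.61% were lower without DBA control 3, and 8.99%, 7.39% and 7.33% without those ligated libraries. Without DBA control 2, 18.4% of all genes were lower and 2597 of 13579 higher.

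**Figure D2:**
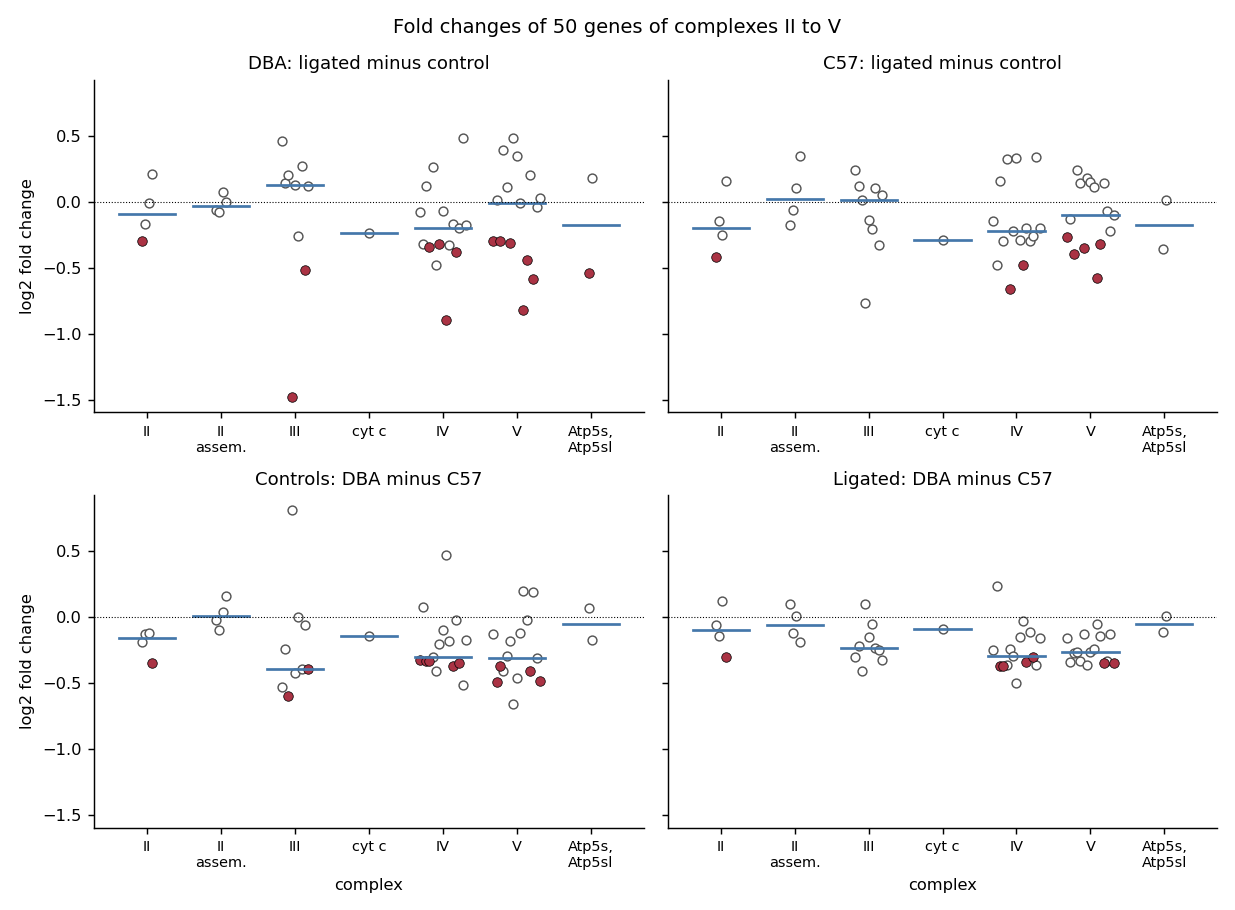
Log2 fold change (y axis) of each of the 50 genes by complex (x axis) in 4 comparisons. Filled points passed an adjusted p under 0.05 and open points did not, and the blue line is the median of the complex; every filled point lies below 0.

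Complex III held the widest contrast between subunits. Uqcrb, at chr13:66900621-66905350 on the minus strand of mm10, codes for a subunit close to the ubiquinone site. Its level was 811, 493, 1320 and 1990 CPM in DBA controls 1 to 4 and 482, 453, 353 and 363 CPM in the ligated libraries 1, S40, S41 and S42. All 4 controls lay above all ligated libraries, but control 2 lay only just above. The log2 fold change was -1.48 (SE 0.32, edgeR adjusted p = 0.00666), and -0.66 (adjusted p = 0.135) without the 3 shallowest libraries. Uqcrh, the hinge subunit that binds cytochrome c1, read 613, 469, 694 and 716 CPM in controls and 449, 454, 419 and 415 CPM after ligation. The groups were again separate, and the log2 fold change was -0.52 (SE 0.13, edgeR adjusted p = 0.0102), or -0.32 without those libraries (adjusted p = 0.0862). Cyc1, the cytochrome c1 subunit itself, read 380, 459, 242 and 184 CPM in controls and 431, 400, 462 and 459 CPM after ligation. Here controls 3 and 4 were low where they were high for Uqcrb, and the log2 fold change of 0.46 (SE 0.20, edgeR adjusted p = 0.101) did not pass.

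The complex V genes that fell in DBA hearts were 4 of 10 subunits of the stalk and membrane part (FO) and 2 of 5 of the catalytic head and rotor (F1). Atp5h, subunit d of the peripheral stalk, read 1150, 834, 1390 and 1670 CPM in controls and 789, 758, 610 and 690 CPM after ligation. Its log2 fold change was -0.82 (SE 0.18, edgeR adjusted p = 0.00756), and -0.48 (adjusted p = 0.0818) without the 3 shallowest libraries. Atp5j, coupling factor 6 of the same stalk, read 466, 435, 559 and 599 CPM in controls and 376, 384, 373 and 384 CPM after ligation, a narrow band below every control. Its log2 fold change was -0.44 (SE 0.10, edgeR adjusted p = 0.00829), and -0.25 (adjusted p = 0.0806) without the 3 shallowest libraries. Atp5k, subunit e of the membrane part, read 235, 225, 318 and 419 CPM in controls and 211, 197, 175 and 213 CPM after ligation (log2 fold change -0.59, SE 0.16, edgeR adjusted p = 0.0179); without the 3 shallowest libraries it was -0.21 (adjusted p = 0.297). Its call was also lost without DBA control 3, control 4 or ligated library S41 alone, and with only the 2 DBA groups fitted. The others were Atp5a1, Atp5c1 (the gamma subunit of the rotor) and Atp5f1 (subunit b of the stalk), each lower by between -0.31 and -0.30 on the log2 scale. By contrast, Atp5d, the delta subunit of the rotor, had a log2 fold change of 0.39 that did not pass (adjusted p = 0.122).

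In complex II 1 subunit fell and in complex IV 4. Sdha, the flavoprotein that oxidises succinate, read 1650, 1760, 1780 and 1620 CPM in DBA controls and 1350, 1420, 1390 and 1380 CPM after ligation. These groups did not overlap and the shallowest libraries did not stand apart; the log2 fold change was -0.30 (SE 0.10, edgeR adjusted p = 0.0357), and -0.30 again but with an adjusted p of 0.103 without them. Cox7b, a small complex IV subunit, read 594, 565, 658 and 725 CPM in controls and 507, 508, 454 and 479 CPM after ligation (log2 fold change -0.38, SE 0.10, edgeR adjusted p = 0.0152), or -0.25 (adjusted p = 0.142) without the 3 shallowest libraries. Cox5b, the zinc-binding subunit, fell from 597, 511, 574 and 519 to 445, 445, 416 and 438 CPM (log2 fold change -0.34, SE 0.10, edgeR adjusted p = 0.0249). Cox6c and Cox6b1 completed the 4. Cox6c read 605, 574, 1100 and 1740 CPM in controls and 509 to 552 CPM after ligation, so that its fold change of -0.90 on the log2 scale became -0.14 without the 3 shallowest libraries. Cytochrome c itself (Cycs) had a log2 fold change of -0.24 (SE 0.10, edgeR adjusted p = 0.0754) and did not pass.

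**Figure D3:**
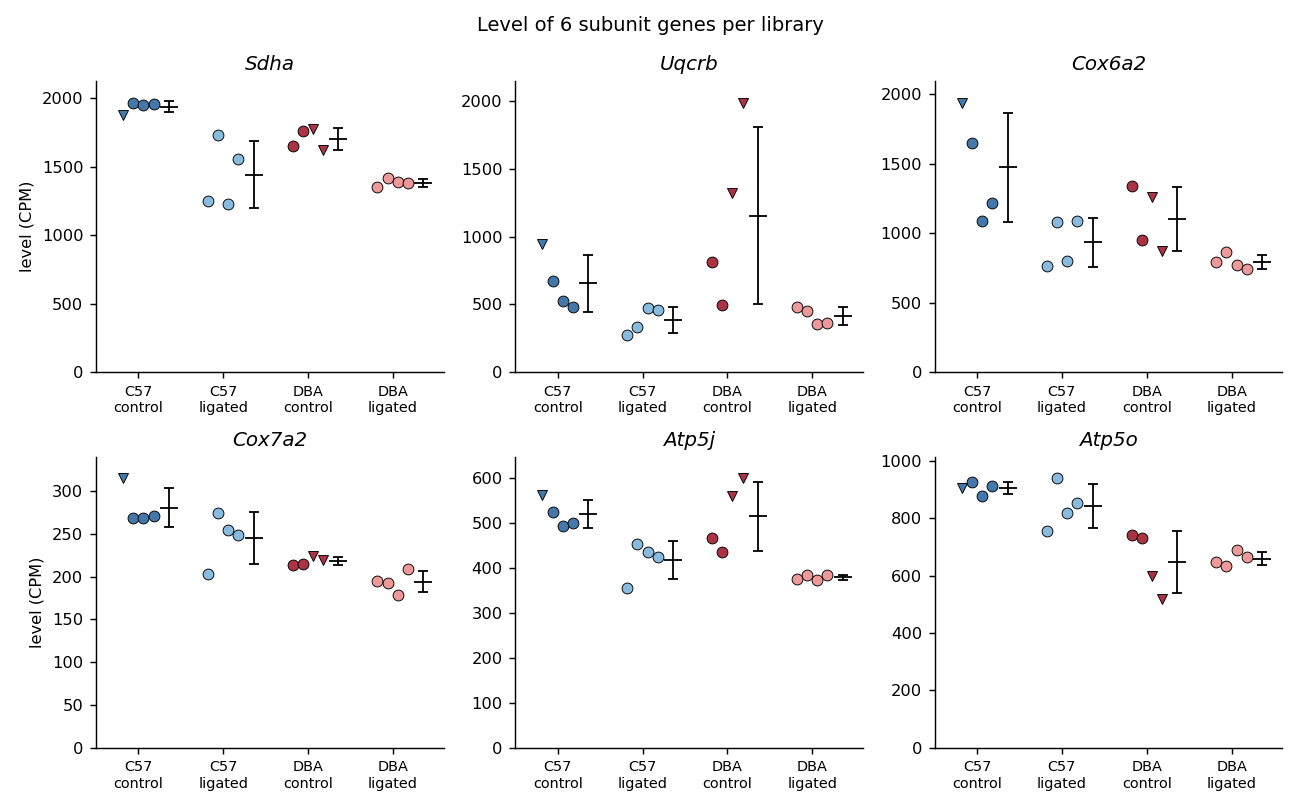
Level (CPM, y axis) of 6 subunit genes in each library by group, with the group mean and SD beside the points and the 3 shallowest libraries as triangles. Sdha and Atp5j are lower after ligation in both strains, Uqcrb is high in DBA controls 3 and 4, and Cox7a2 and Atp5o are lower in DBA controls than in C57 controls.

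**Figure D4:**
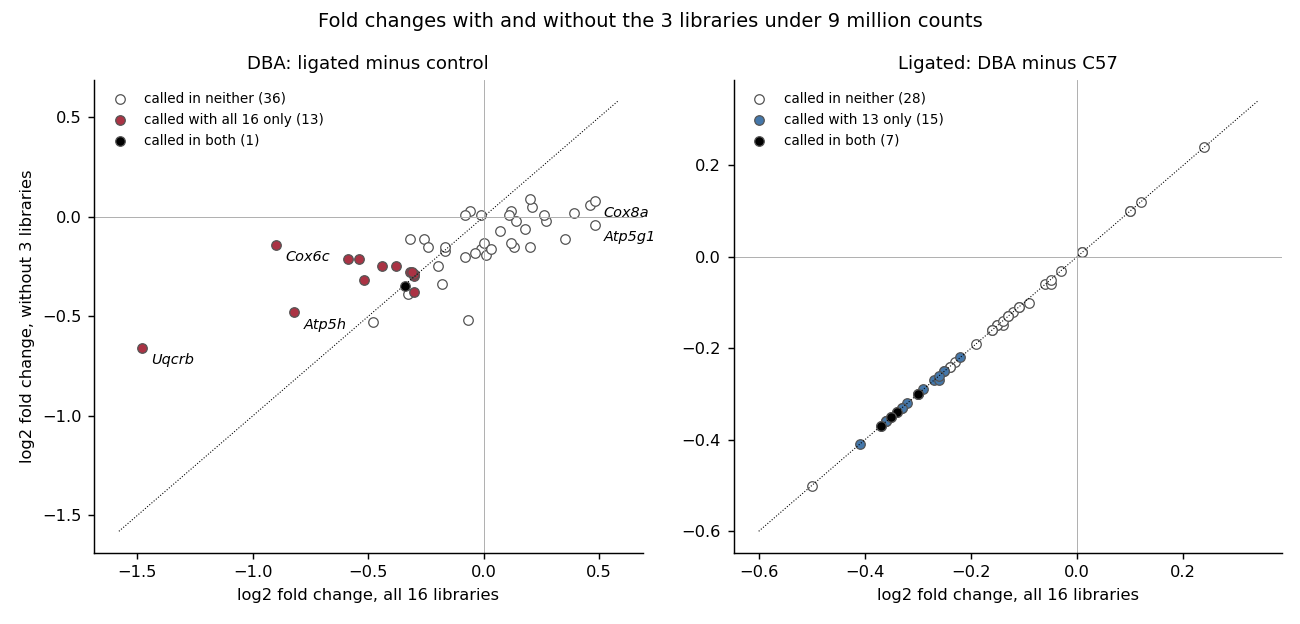
Log2 fold change of the 50 genes with all 16 libraries (x axis) and without the 3 shallowest libraries (y axis), for ligation in DBA (left) and for the strain difference after ligation (right). Colours mark in which fit a gene was called; on the left the points lie off the dotted line of equality, with 1 gene called in both, and on the right they lie on it, with 7 called in both and 15 with 13 libraries only.

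After ligation in C57 mice, 8 of the 50 genes fell and none rose, against 6.06% and 7.24% of all genes (13.3% in either direction). Complex V again gave the most, with 5 of 15 subunits (Atp5a1, Atp5c1, Atp5f1, Atp5h and Atp5j), followed by Cox6a2 and Cox7a1 of complex IV and Sdha of complex II; none of the 9 subunits of complex III passed. The median log2 fold change of the 50 was -0.15, against 0.02 for all genes. In 11 genes all ligated libraries lay below the controls (12.7% of all genes) and in 2, Cox6a1 and Cox8a, all lay above (11.7%). DBA and C57 ligation were measured in different mice, and 6 genes fell in both: Sdha, Atp5a1, Atp5c1, Atp5f1, Atp5h and Atp5j. These are 75.0% of the C57 calls and 42.9% of the DBA calls. Over all genes, 62.2% of those lower in C57 were also lower in DBA, and 27.4% of those lower in DBA were lower in C57. Without ligated C57 library 1, the lowest of its group for every complex, edgeR called no member, with 14 at an unadjusted p under 0.05. Leaving out control 1, control 2 or ligated library 3 left 1 call each, and leaving out control 4 left 5. The share of all genes called lower was 1.72% without ligated library 1 and 2.71% without control 1 or control 2. It was 2.14% without ligated library 3 and 4.8% without control 4. Without the 3 shallowest libraries 12 were called, 10 lower and 2 higher, Sdhaf4 (0.33, adjusted p = 0.0493) and Cox8a. Of the 13711 genes then tested, 9.53% fell and 1522 rose.

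Sdha read 1880, 1970, 1950 and 1960 CPM in C57 controls 1 to 4 and 1250, 1730, 1230 and 1560 CPM in ligated libraries 1 to 4. Controls were tight and ligated hearts spread, with no overlap; the log2 fold change was -0.42 (SE 0.10, edgeR adjusted p = 0.0109), and only leaving out ligated library 1 ended the call (adjusted p = 0.0507). Atp5c1 read 1640, 1560, 1430 and 1430 CPM in controls and 903, 1230, 1160 and 1300 CPM after ligation (log2 fold change -0.40, SE 0.11, edgeR adjusted p = 0.0199). Atp5f1 read 1500, 1450, 1260 and 1340 CPM in controls and 926, 1180, 1070 and 1170 CPM after ligation (log2 fold change -0.35, SE 0.09, edgeR adjusted p = 0.0179). Its exons overlap those of Wdr77 on the opposite strand over 410 bases, and those of Atp5j overlap Gabpa on the opposite strand over 246 bases; the strand setting of the counting is not given, so reads of these partners may not be told apart. Atp5a1 read 5400, 5290, 5170 and 5290 CPM in controls and 3770, 4950, 4130 and 4640 CPM after ligation (log2 fold change -0.27, SE 0.08, edgeR adjusted p = 0.0406).

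The 2 muscle forms of complex IV among the C57 calls showed more spread between controls. Cox6a2 read 1940, 1650, 1090 and 1220 CPM in C57 controls and 767, 1080, 800 and 1090 CPM after ligation, with control 3 level with ligated library 4. Its log2 fold change was -0.66 (SE 0.18, edgeR adjusted p = 0.0232), and -0.48 in DBA (SE 0.18, adjusted p = 0.0554). Cox7a1 read 472, 409, 369 and 387 CPM in C57 controls and 205, 370, 287 and 315 CPM after ligation, where only library 2 reached the controls (log2 fold change -0.48, SE 0.14, edgeR adjusted p = 0.0354); without the 3 shallowest libraries it was -0.40 (adjusted p = 0.0607).

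No member differed between the strains in its response to ligation. By edgeR, 0 of the 50 genes and 0% of all genes passed the interaction test, and 1 of the 50, Atp5k, had an unadjusted p under 0.05 (log2 difference of responses -0.51, SE 0.23, adjusted p = 0.846). DESeq2 also called 0 of the 50, with 2 at an unadjusted p under 0.05, and voom with library quality weights called 0, with 1. Differences of responses ran from -0.71 for Uqcrb (SE 0.45, edgeR adjusted p = 0.857) to 0.30 for Atp5g1 (SE 0.38, edgeR adjusted p = 0.888). With standard errors of this size, the 14 calls in DBA and 8 in C57 do not show that the strains responded differently, nor that they responded alike.

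The muscle forms of 2 complex IV subunits were lower relative to their partners in every ligated library of both strains, although no ratio passed the correction for the number tested. A ratio of counts within one library is free of the scaling between libraries. It need not be free of the split by GC content, which was 52.8% for Cox6a2 and 60.8% for Cox6a1. The part of GC content in these ratios was not tested. In C57 controls 1 to 4 there were 44.7, 29.3, 20.2 and 21.6 Cox6a2 counts for each Cox6a1 count, and after ligation 13.3, 18.3, 9.4 and 17.6. In DBA the ratios were 25.4, 19.3, 35.9 and 27.4 in controls and 13.9, 16.6, 17.7 and 14.2 after ligation. Every ligated library lay below every control of its strain, by a mean of -0.96 on the log2 scale in C57 and -0.76 in DBA. Without the 3 shallowest libraries these differences were smaller, at -0.72 in C57 and -0.51 in DBA. For Cox8b and Cox8a, the ratio was 5.26, 4.97, 4.92 and 4.28 in C57 controls and 2.45, 3.71, 3.2 and 3.97 after ligation, a log2 difference of -0.56. In DBA it was 5.38, 4.93, 7.23 and 10.3 in controls and 4.33, 4.1, 2.99 and 3.94 after ligation, a log2 difference of -0.81, and of -0.44 without controls 3 and 4. The groups were separate in both strains. The ratio of Cox7a1 to Cox7a2 was lower in all ligated C57 libraries, at 1.01, 1.35, 1.13 and 1.27 against 1.5, 1.52, 1.38 and 1.43 in controls (log2 difference -0.30), while the DBA groups overlapped (log2 difference -0.15). It was also higher in ligated DBA than in ligated C57 hearts, by 0.33 on the log2 scale, with no overlap.

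Each of these 6 separated comparisons had an exact permutation p of 0.029 (two-sided, n = 4 per group), the smallest that 4 against 4 libraries can give, and an adjusted p of 0.11 over the 24 ratios tested. None of the 24 thus passed the correction. In C57 the level of Cox8a was higher and that of Cox8b lower on average, neither past the threshold with all libraries. Cox8a read 54.2, 64.5, 73.5 and 76.6 CPM in C57 controls and 81.2, 82.4, 95.4 and 81.1 CPM after ligation, where all ligated libraries were higher (log2 fold change 0.34, SE 0.20, edgeR adjusted p = 0.275); without the 3 shallowest libraries, control 1 among them, it was 0.25 and passed (adjusted p = 0.0289). Cox8b read 285, 321, 362 and 328 CPM in C57 controls and 199, 306, 305 and 322 CPM after ligation (log2 fold change -0.20, SE 0.15, edgeR adjusted p = 0.385). For Cox4i2 and Cox4i1, Atp5g1 and Atp5g3, and Atp5g2 and Atp5g3, no comparison separated the groups, with exact permutation p from 0.086 to 0.77 over the 12 ratios.

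**Figure D5:**
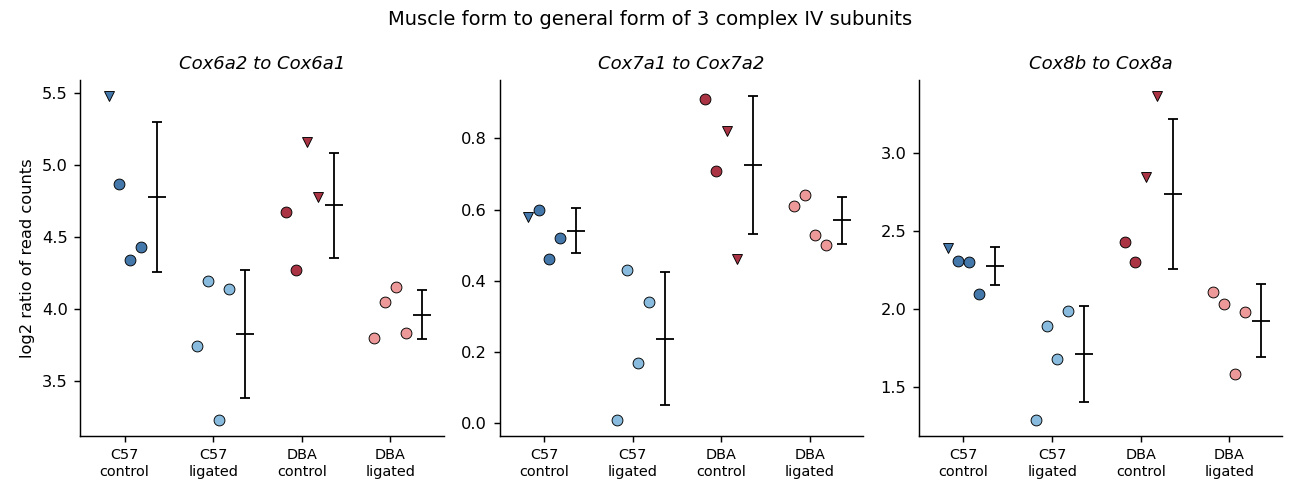
Log2 ratio of the counts of the muscle form to those of the form of other tissues (y axis) for 3 complex IV subunits in each library, with group mean and SD, and triangles for the 3 shallowest libraries. Ligated libraries lie below the controls of their strain for Cox6a2 to Cox6a1 and Cox8b to Cox8a, and in C57 for Cox7a1 to Cox7a2.

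The Cox8 pair differs in the DNA before the gene, shown here because the ratio of Cox8b to Cox8a was lower in ligated libraries. The RefSeq promoters (GRCm38.p6, minus strand, 250 bases before to 50 after the start) lie at chr19:7217567-7217866 for Cox8a and chr7:140900397-140900696 for Cox8b. Capitals mark CTTCCGG, the reverse complement of CCGGAAG, the core site of the ETS factor GABPA.
Cox8a: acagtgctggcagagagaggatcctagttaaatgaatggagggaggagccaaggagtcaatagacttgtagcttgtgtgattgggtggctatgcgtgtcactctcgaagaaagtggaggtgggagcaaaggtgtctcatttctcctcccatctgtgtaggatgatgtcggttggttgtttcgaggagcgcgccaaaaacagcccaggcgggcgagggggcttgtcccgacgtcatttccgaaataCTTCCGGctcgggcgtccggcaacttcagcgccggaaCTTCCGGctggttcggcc
Cox8b: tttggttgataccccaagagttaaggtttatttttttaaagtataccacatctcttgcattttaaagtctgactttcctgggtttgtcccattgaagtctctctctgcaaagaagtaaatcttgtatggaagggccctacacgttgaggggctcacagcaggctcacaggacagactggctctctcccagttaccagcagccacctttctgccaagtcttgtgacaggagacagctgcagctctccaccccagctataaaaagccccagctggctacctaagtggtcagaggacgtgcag
Cox8a held this sequence at 2 places and Cox8b at none; neither held any of the other motifs searched. These letters describe the window and say nothing of which factor bound there.

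Among untreated hearts, 12 of the 50 genes were lower in DBA than in C57 and none was higher, against 9.92% lower and 12.6% higher of all genes (22.5% in either direction). In 13 genes every DBA control lay below every C57 control, against 9.69% of all genes, and in 0 above, against 11%. The 12 called genes included 5 of 15 subunits of complex IV (Cox4i1, Cox5a, Cox5b, Cox7a2 and Cox7c) and 4 of 15 of complex V (Atp5b, Atp5c1, Atp5j2 and Atp5o). The others were 2 of 9 subunits of complex III (Uqcrq and Uqcr11) and Sdhd of complex II. Among the called genes, Cox5a, Uqcrq and Sdhd had overlapping groups. The median log2 fold change of the 50 genes was -0.19, against 0.02 for all genes, and -0.39 in complex III, -0.30 in IV and -0.31 in V. Without the 3 shallowest libraries 4 were called, Cox7a2, Cox7c, Atp5b and Atp5o, and without DBA control 2 alone 23, of which 2 were higher. Of all genes 8.49% and 14.2% were lower in these 2 fits. DBA reads were counted against a genome of C57BL/6 origin, so sequence differences can lower DBA counts of single genes; this cannot be told apart from lower expression here.

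Atp5o, the subunit that joins the stalk to the catalytic head, read 904, 925, 877 and 911 CPM in C57 controls and 741, 730, 600 and 518 CPM in DBA controls. The groups were far apart, with DBA controls 3 and 4 lowest; the log2 fold change was -0.48 (SE 0.10, edgeR adjusted p = 0.00246), and -0.30 (adjusted p = 0.0273) without the 3 shallowest libraries. Cox7a2 read 315, 269, 268 and 271 CPM in C57 controls and 214, 215, 224 and 219 CPM in DBA controls, where DBA controls 3 and 4 did not stand apart but C57 control 1 stood above the other C57 controls. The log2 fold change was -0.37 (SE 0.09, edgeR adjusted p = 0.00725), and -0.33 (adjusted p = 0.0302) without the 3 shallowest libraries. Cox7c, a small subunit, read 428, 438, 403 and 425 CPM in C57 and 358, 330, 342 and 298 CPM in DBA controls (log2 fold change -0.35, SE 0.09, edgeR adjusted p = 0.00792). Atp5b read 4650, 4960, 5530 and 5330 CPM in C57 and 3950, 4450, 3410 and 2780 CPM in DBA controls (log2 fold change -0.49, SE 0.12, edgeR adjusted p = 0.0086). Atp5j2, subunit f of the membrane part, read 362, 349, 421 and 414 CPM in C57 and 302, 329, 286 and 247 CPM in DBA controls (log2 fold change -0.41, SE 0.11, edgeR adjusted p = 0.0108). In these genes every DBA control lay below every C57 control. Atp5c1 was separate too, at 1280, 1190, 1180 and 1040 CPM in DBA controls (log2 fold change -0.37, SE 0.11, edgeR adjusted p = 0.0168). The calls of Atp5j2 and Atp5c1 were lost without the 3 shallowest libraries.

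After ligation, 7 genes were lower in DBA than in C57 hearts and none was higher, against 8.81% lower and 10.6% higher of all genes (19.4% in either direction). In 15 genes the DBA libraries all lay below the C57 libraries, against 15.1% of all genes, and in 0 above, against 15.6%. The 7 were Sdhd, Cox5a, Cox5b, Cox7a2, Cox7c, Atp5j2 and Atp5o. Control and ligated hearts are different mice, and all 7 were also among the 12 that were lower in DBA controls, that is, 100% of the one list and 58.3% of the other; over all genes the shares were 67.1% and 59.7%. All 15 complex V subunits had a fold change below 0, from -0.36 to -0.05, as did 14 of 15 in complex IV and 8 of 9 in complex III. The median over the 50 was -0.23, against 0.01 for all genes. The fold changes were the same to within 0.01 without the 3 shallowest libraries, none of which belongs to the ligated groups, but the spread estimated for the fit changed, and 22 genes then passed, all lower in DBA, against 15.5% of all genes. They were 8 of complex V, 8 of complex IV, 5 of complex III and 1 of complex II. A fit on the ligated groups alone also gave 22, whereas leaving out ligated C57 library 2, the highest of its group, gave 0 by edgeR, with 9 at an unadjusted p under 0.05. Without ligated DBA library 1, S40 or S41 the count was 2, 3 or 4. Of all genes, 15.5% were lower in the fit on the ligated groups alone and 7% without ligated C57 library 2. Without those DBA libraries the shares were 6.7%, 6.68% and 6.75%.

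Atp5o read 757, 939, 818 and 853 CPM in ligated C57 libraries 1 to 4 and 649, 635, 690 and 663 CPM in the ligated DBA libraries 1, S40, S41 and S42. The groups were separate (log2 fold change -0.35, SE 0.10, edgeR adjusted p = 0.0207). Cox5a read 579, 722, 636 and 597 CPM in C57 and 474, 440, 513 and 532 CPM in DBA, also without overlap (log2 fold change -0.37, SE 0.11, edgeR adjusted p = 0.0188). Cox5b read 470, 626, 558 and 595 CPM in C57 and 445, 445, 416 and 438 CPM in DBA (log2 fold change -0.37, SE 0.10, edgeR adjusted p = 0.0156). Cox7a2 read 203, 274, 255 and 249 CPM in C57 and 195, 193, 179 and 209 CPM in DBA, so that C57 library 1 lay within the DBA range (log2 fold change -0.34, SE 0.09, edgeR adjusted p = 0.0126). For Cox7c, at 293, 374, 364 and 389 CPM in C57 and 292, 296, 274 and 295 CPM in DBA, the same C57 library lay among the DBA libraries (log2 fold change -0.30, SE 0.09, edgeR adjusted p = 0.0242). Atp5j2 was separate, at 385, 507, 410 and 406 CPM in C57 and 321, 312, 331 and 376 CPM in DBA (log2 fold change -0.35, SE 0.11, edgeR adjusted p = 0.028).

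In all, 26 of the 50 genes were called in at least one comparison and 24 in none. The 4 assembly factors of complex II were in the second set, with medians between -0.06 and 0.02 in the 4 group comparisons, and so was Cycs. Atp5s and Atp5sl, named for ATP synthase, carry the RefSeq symbols Dmac2l and Dmac2; Atp5s fell in DBA hearts (log2 fold change -0.54, SE 0.16, edgeR adjusted p = 0.0211), with controls at 21.2, 18.5, 28.9 and 33.8 CPM and controls 3 and 4 highest, and without the 3 shallowest libraries it was -0.21 (adjusted p = 0.217). Complex I takes electrons from NADH and shares the membrane. The 36 genes compared for it were taken by symbol alone (Nduf, then a, b, c, s or v and a digit). Of these, 14 fell after ligation in DBA, that is 38.9% where 13.8% of all genes fell, and 8 in C57, 22.2% against 6.06%. In DBA controls 9 were lower than in C57 controls, 25% against 9.92%, and in ligated DBA hearts 3, or 8.33% against 8.81%, which is near the background. In each comparison 1 was higher. Without the 3 shallowest libraries the lower counts were 2, 6, 3 and 17 of the 36 in the same order. Of all genes 3.78%, 9.53%, 8.49% and 15.5% were then lower. No test of a difference between complexes was made, and complexes of 4 to 15 genes differ in counts by a few calls.

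Of 32 genes listed as assembly or related factors of complexes III to V, 11 fell and none rose after ligation in DBA, 34.4% lower against 13.8% of all genes. The list also held Usmg5, itself a complex V subunit, and Atpif1, an inhibitor of complex V. Both were among the 11, with log2 fold changes of -1.52 and -1.12. Without the 3 shallowest libraries these values were -0.40 and -0.10. In C57, 2 fell (6.25% against 6.06%) and 1 rose (3.12% against 7.24%), both near or below the background. Without the 3 shallowest libraries 2 fell in DBA, and 4 fell and 1 rose in C57. Over all genes 3.78% then fell in DBA, and in C57 9.53% fell and 1522 of 13711 rose. Ttc19, needed for complex III in human cells and mice, fell in both, by -0.53 in DBA (SE 0.08, edgeR adjusted p = 0.0023) and by -0.37 in C57 (SE 0.08, adjusted p = 0.00734). Atpaf1, a chaperone of the complex V head, fell by -0.40 and -0.30 on the log2 scale (SE 0.09 in each; edgeR adjusted p = 0.00698 and 0.0338), and without those libraries its call in DBA was lost (-0.25, adjusted p = 0.0584). Cox19, a copper-related factor of complex IV, rose in C57 by 0.54 (SE 0.11, edgeR adjusted p = 0.00583). Between strains, 2 of the 32 were lower in DBA controls and 3 higher (6.25% and 9.38%, against 9.92% and 12.6% of all genes). After ligation 4 were lower in DBA and 1 higher (12.5% and 3.12%, against 8.81% and 10.6%). Without the 3 shallowest libraries 4 were lower and 3 higher in controls, and 8 lower and 2 higher after ligation. Of the 13711 genes then tested, 8.49% and 15.5% were lower and 1493 and 2220 higher. Tmem70, an assembly factor of complex V, was lower in DBA in controls (-0.63, SE 0.10, edgeR adjusted p = 0.00014) and after ligation (-0.55, SE 0.09, adjusted p = 0.00041). Its mean level was 94.1 and 90.5 CPM in C57 control and ligated hearts and 60.6 and 62 CPM in DBA. Cox18, which inserts a mitochondrially encoded subunit into the membrane, was higher in DBA in both (0.74 and 0.87, SE 0.19 and 0.17, edgeR adjusted p = 0.00921 and 0.00149).

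Of 18 regulators of mitochondrial gene expression, 7 fell after ligation in DBA (38.9% against 13.8% of all genes) and 1 rose (5.56% against 11.1%), and 6 fell in C57 (33.3% against 6.06%) with none higher. Without the 3 shallowest libraries 4 fell in DBA and 7 in C57, where 3.78% and 9.53% of all genes fell. Ppargc1a (PGC-1alpha), a coactivator that drives respiratory genes in heart muscle, went from a mean of 248 to 121 CPM in DBA (log2 fold change -1.03, SE 0.21, edgeR adjusted p = 0.00526, or -0.45 and 0.0372 without those libraries) and from 232 to 148 CPM in C57 (-0.65, SE 0.21, adjusted p = 0.0468). Esrrg, a nuclear receptor that works with it, fell in DBA by -0.71 (SE 0.13, edgeR adjusted p = 0.00406), and Mef2a, a muscle transcription factor, by -0.70 (SE 0.14, adjusted p = 0.00426); without those libraries the values were -0.42 (adjusted p = 0.0129) and -0.40 (adjusted p = 0.0215). Tfb2m, needed to transcribe mitochondrial DNA, fell by -0.33 in DBA and -0.37 in C57 (SE 0.09 in each; edgeR adjusted p = 0.0148 and 0.0125), the first with an adjusted p of 0.0534 without those libraries. Nrf1, a factor that binds many respiratory gene promoters, was the one that rose, by 0.29 in DBA (SE 0.09, edgeR adjusted p = 0.0317); without those libraries its value was 0.26 (adjusted p = 0.121). Between strains, 3 of the 18 were lower in DBA controls (16.7% against 9.92% of all genes) and 1 after ligation (5.56% against 8.81%). None was higher, against 12.6% and 10.6% of all genes. Without the 3 shallowest libraries 2 and 5 were lower, where 8.49% and 15.5% of all genes were. Lrpprc, which stabilises mitochondrial mRNAs, was lower in DBA in controls (-0.62, SE 0.09, edgeR adjusted p = 4.52e-05) and after ligation (-0.57, SE 0.09, adjusted p = 9.56e-05). Its mean was 273 and 232 CPM in C57 control and ligated hearts and 177 and 156 CPM in DBA.

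Gabpa fell in both strains, by -0.46 in DBA and -0.44 in C57 (SE 0.12 in each; edgeR adjusted p = 0.0126 and 0.0224), and its exons overlap those of Atp5j, which fell too. Without the 3 shallowest libraries its call in DBA was lost (-0.23, adjusted p = 0.0982). One of the RefSeq promoters of Atp5j, at chr16:84834927-84835226 on the minus strand of GRCm38.p6, is printed for this reason, with that of Atp5k, at chr5:108434350-108434649 on the same strand, as a gene that fell in DBA. The other RefSeq promoter of Atp5j, at chr16:84835576-84835875, covers the annotated start of the counted gene at position 84835625 and held none of the motifs searched. Capitals mark AAGATGGCG (YY1) and CCGGAAG (GABPA) in Atp5j, and in Atp5k GCGCATGCG (NRF1), found on both strands in 1 stretch where the matches overlap, and CTTCCGG (GABPA, other strand).
Atp5j: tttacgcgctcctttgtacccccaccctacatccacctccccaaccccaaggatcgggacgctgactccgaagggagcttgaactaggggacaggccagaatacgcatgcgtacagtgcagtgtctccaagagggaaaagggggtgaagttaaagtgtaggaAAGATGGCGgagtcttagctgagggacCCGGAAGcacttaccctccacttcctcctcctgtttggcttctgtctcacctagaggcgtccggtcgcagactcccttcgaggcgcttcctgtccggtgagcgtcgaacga
Atp5k: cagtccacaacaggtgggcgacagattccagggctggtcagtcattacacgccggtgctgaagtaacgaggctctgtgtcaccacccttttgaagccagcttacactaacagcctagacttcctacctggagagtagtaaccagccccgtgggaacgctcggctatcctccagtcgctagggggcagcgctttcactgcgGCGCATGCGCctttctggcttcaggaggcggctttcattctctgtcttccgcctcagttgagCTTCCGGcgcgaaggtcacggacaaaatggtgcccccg
Promoters were found for 40 of the 50 genes and searched on both strands. CCGGAAG was in 37.5% of the 40, in 18.8% of the 10945 genes of the count table with a promoter, and in 9.93% of all 27025 genes with one. The shares for GCGCATGCG were 17.5%, 3.9% and 1.95%, for AAGATGGCG 7.5%, 3.3% and 1.64%, and for TCAAGGTCA (the estrogen-related receptors) 5.0%, 0.292% and 0.466%. A motif match is a description of sequence, not of binding.

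Respiratory genes are most abundant in heart muscle cells, and in bulk tissue fewer such cells and less RNA per cell cannot be told apart. All 10 ventricular muscle markers were present, with none at 0. Their summed level was 113000 to 133000 CPM in C57 controls, 86500 to 102000 in ligated C57, 90800 to 126000 in DBA controls and 73700 to 76700 CPM in ligated DBA hearts. Of these 10 markers, 7 fell after ligation in DBA and 5 in C57 (13.8% and 6.06% of all genes fell), and 3 were lower in DBA than in C57 in controls and 3 after ligation (9.92% and 8.81% of all genes). All 7 fibroblast markers were present too, at a sum of 1630 to 1960, 2510 to 4870, 2850 to 3860 and 4550 to 5660 CPM in the same order. Of them 4 rose in DBA and 5 in C57 (11.1% and 7.24% of all genes rose); 6 were higher in DBA controls and 5 in ligated DBA hearts (12.6% and 10.6% of all genes). Macrophage markers (7 of 7 present) summed to 193 to 196, 240 to 341, 232 to 263 and 303 to 337 CPM. Of these 7, 5 rose in DBA and 4 in C57 (11.1% and 7.24% of all genes). In DBA controls 2 were higher than in C57 controls, and in ligated DBA hearts 1 (12.6% and 10.6% of all genes). All 5 atrial markers were present, none at 0, at sums of 150 to 247, 473 to 874, 288 to 679 and 797 to 1110 CPM, so that ligated libraries lay above the controls of their strain. In DBA 1 of them rose and 3 fell after ligation (11.1% and 13.8% of all genes). In C57 1 rose (7.24% of all genes), and 1 was higher in DBA controls (12.6%). The median log2 fold change of the 5 was -2.24 in DBA and -1.07 in C57, so their sum does not stand for the list as a whole. All 6 endothelial markers were present, at sums of 1230 to 1470, 1490 to 1580, 1030 to 1270 and 1400 to 1570 CPM. After ligation 3 rose in DBA and 1 in C57 (11.1% and 7.24% of all genes), and 1 was lower in DBA controls (9.92%). Without the 3 shallowest libraries the calls after ligation in DBA were 3 lower ventricular markers, no fibroblast or macrophage marker, and 1 higher each of the atrial and endothelial markers. Of the 13711 genes then tested, 518 (3.78%) fell and 432 rose. The marker lists thus differed in how far they changed with ligation and with strain, and the part of cell makeup in these results was not tested.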

How the data were processed

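PolyA RNA of 16 mouse hearts was sequenced. The submitters' processing notes name STAR 2.5.2b, featureCounts, Subread 1.5.1, edgeR and the build mm10. No source used here states the annotation, the strand setting or how reads with several matches were counted, so genes with processed pseudogenes are uncertain. The authors deposited whole-number read counts per gene, not normalized, with a gene length column (unit other) and coordinates. Another 16 per-sample columns were not used. For 3 ligated DBA libraries the mouse numbers in the columns differ from the labels, so they are unnumbered and named S40, S41 and S42.

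All 13504 genes kept by edgeR's filter by group were fitted together with edgeR 4.0.16 (R 4.3.3; TMM scaling, robust quasi-likelihood test, 4 group means over all 16 libraries, two-sided, Benjamini-Hochberg over all genes, called at 0.05). CPM here are TMM-scaled. Fold changes are log2, and CPM per kb use the deposited length. Ratios of paralogs used a pseudocount of 0.5 and exact permutation tests (SciPy 1.17.1). Members, complexes and lists were chosen with earlier results of these data known. Named with full values were the 6 members of smallest p called in each comparison and the paralog pairs; others were named after their values were seen. Scripts were tested on simulated data. Deviations from the group mean of same-numbered libraries correlated at -0.21 to 0.01 between C57 controls and ligated C57 or DBA controls. Differently numbered libraries were not compared, so this does not show whether a number stands for shared handling. Alternatives covered scaling, filter, tool (DESeq2 1.42.0), groups fitted, a GC correction, depth and each library left out; voom with quality weights (limma 3.58.1) was chosen after seeing the data.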

Additional observations from a re-analysis of the deposited data

Results flagged for a closer look

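In 152 sets of 4 libraries (levels of the genes named with full values, ratios of paralogs and summed levels, in each group), 8 held a library whose gap to the nearest other exceeded Dixon's 95% critical share of the whole range; chance alone gives about 7.6. In ligated C57 library 1, Cox7b stood at 410 CPM, where the other 3 were at 550 to 572, and Cox8b at 199 CPM, where they were at 305 to 322. In ligated C57 library 3, Cox6a1 stood at 85.1 CPM (others 57.5 to 61.8) and Cox8a at 95.4 CPM (others 81.1 to 82.4). In ligated DBA library S41, Cox7a1 stood at 258 CPM (others 296 to 299), and the summed level of complex IV at 5350 CPM (others 5620 to 5640). C57 control 1, one of the libraries under 9000000 counts, held 315 CPM of Cox7a2 (others 268 to 271). DBA control 2 held 518 CPM of Cox5a (others 422 to 438).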

How the results depend on the processing

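All 41 calls kept their sign under every alternative and every library left out. Library totals in place of TMM moved the median of all genes from 0.03 to 0.19 (DBA ligation) and from 0.02 to 0.13 (C57 ligation); relative to it the median of the 50 genes was -0.10 and -0.17. The calls were then 5 higher (Sdhd, Cyc1, Cox8a, Atp5d and Atp5j2) and 6 lower in DBA, 4 in C57 (1 higher) and 2 between ligated strains. Of all genes 6.08%, 3.15% and 5.66% were lower in these 3 comparisons. DESeq2 called 13 (1 higher) in C57 and 11 between ligated strains, and the GC correction 13 between ligated strains. Of all genes 8.73%, 10.9% and 11.1% were lower in these fits. With only the compared groups fitted, 9 were called for DBA ligation, 5 between controls and 22 between ligated strains (6.73%, 5.39% and 15.5% of all genes lower). Without the 3 libraries under 9000000 counts, with or without the GC correction, the counts were 1 in DBA, 4 between controls and 22 between ligated strains; without the correction 12 (2 higher) were called in C57. Voom with quality weights called 14 (1 higher) in C57 and 19 between ligated strains (10.6% and 15.3% of all genes lower). With each library left out, calls ranged from 4 to 22 (DBA ligation), 0 to 9 (C57 ligation), 8 to 23 (controls) and 0 to 10 (ligated), and stayed at 0 for the interaction. The share of all genes called lower ranged from 5.61% to 18.4%, 1.72% to 6.19%, 7.26% to 14.2% and 6.68% to 7.91% in the same order. The replicate block gave 3 for C57 ligation and 0 between controls (10 at an unadjusted p under 0.05), where 6.26% and 2.59% of all genes were lower. Whether a shared number stands for shared handling was not settled. No such fit was possible for the other comparisons because the ligated DBA columns carry no agreed number. Some ratios that did not separate groups changed sign. Without the 3 libraries, Cox4i2 to Cox4i1 (DBA ligation) became 0.10, Atp5g1 to Atp5g3 (DBA ligation) -0.05, and Atp5g2 to Atp5g3 -0.12 (DBA ligation), -0.05 (C57 ligation) and 0.05 (controls). With 1 library left out, the log2 strain difference of Cox6a2 to Cox6a1 ran from -0.21 to 0.17 in controls (0.09 without DBA control 2) and from -0.07 to 0.25 after ligation, and that of Atp5g2 to Atp5g3 after ligation reached 0.01. The cause of these shifts was not tested.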
